A study of Caenorhabditis elegans with 2 samples.

Results

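The peaks described here are 1473 weaker peaks for tagged NHR-11 inside introns of Caenorhabditis elegans genes. These 1473 were taken from 13558 peaks in the list called on both replicates pooled. They were chosen by their signal and their presence in both replicates: each lay below the lowest signal of the thresholded list (54.9), its interval held a summit of the list of each replicate, and its own summit lay inside a protein-coding gene, in no exon, and outside the promoter window from 1000 bp upstream to 200 bp downstream of any protein-coding gene start. Signal is the strength that the authors' caller gave each peak, in units the files do not state. The pooled list held 2719 thresholded peaks and 10839 weaker ones. It was deposited as peaks and background, the input to a reproducibility threshold that no member passed, so the weaker peaks may include background. Of the weaker ones, 6064 (55.9%) held a summit of both replicates. Among weaker peaks in introns alone, 1473 of 2728 did so (54%, 95% Clopper-Pearson interval 52.1 to 55.9), and these are the members. The share was 60.2% of 3287 weaker promoter peaks, 57.2% of 2695 intergenic ones and 50.3% of 2129 in exons. Since presence in both replicates chose the members, these shares are descriptions and carry no test.

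Chromatin immunoprecipitation followed by sequencing (ChIP-seq) was run on whole L4 larvae, the last larval stage, of strain OP305. The strain carries unc-119(ed3) III and the insertion wgIs305, which supplies NHR-11 tagged with eGFP. The animals of both sexes were pooled, and the single group had 2 biological replicates. No untagged or input sample was analysed here, and it cannot be told which peaks are particular to NHR-11. A whole-animal library also cannot tell binding in few cells from weak binding in many. The depth of the libraries is unknown, since peak lists carry no read numbers, and intervals on shares cover counting error alone.

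NHR-11 belongs to the nuclear hormone receptors, zinc-finger transcription factors that in many animals bind short hexamers related to AGGTCA and are often switched by small lipophilic ligands. The family is greatly expanded in nematodes, and many worm receptors have no known ligand. Introns of worm genes can hold enhancers, start sites of shorter transcripts and genes of small RNAs, and transcription factor ChIP-seq in this animal also recovers regions that many factors share.

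Sequences from 50 bp before to 50 bp after the summit are shown for the 8 strongest members on the chromosomes from which sequence is shown and, for each of the 2 motifs found more often at summits than beside them, for the strongest further member with it. They are given so that the base composition and the motifs behind the results can be seen. All are from the plus strand of the WBcel235 (ce11) genome sequence. Capitals in swt-5 mark the part of a tRNA gene (9503562 to 9503633) inside the window, capitals in osgn-1 and lsm-8 mark GAGAGAG on the minus strand (CTCTCTC as printed), and capitals in mob-2 mark CACGTG. The windows are chrIII:4191335-4191435 for dnj-16, chrV:13085373-13085473 for C34B4.2, chrII:10509257-10509357 for F59B10.2, chrV:9503495-9503595 for swt-5 and chrIV:2162389-2162489 for C54E4.4. The others are chrIV:4211041-4211141 for osgn-1, chrIV:8530814-8530914 for pkg-2, chrV:4527029-4527129 for sos-1, chrIV:6327487-6327587 for lsm-8 and chrX:13164354-13164454 for mob-2.
dnj-16: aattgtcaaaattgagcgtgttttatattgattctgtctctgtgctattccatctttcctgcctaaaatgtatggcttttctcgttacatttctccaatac
C34B4.2: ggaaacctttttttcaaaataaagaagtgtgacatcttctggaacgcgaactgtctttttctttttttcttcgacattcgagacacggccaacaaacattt
F59B10.2: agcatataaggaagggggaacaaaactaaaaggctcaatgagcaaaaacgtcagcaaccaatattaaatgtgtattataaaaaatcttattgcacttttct
swt-5: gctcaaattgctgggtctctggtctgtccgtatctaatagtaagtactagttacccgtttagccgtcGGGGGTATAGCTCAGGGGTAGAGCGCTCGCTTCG
C54E4.4: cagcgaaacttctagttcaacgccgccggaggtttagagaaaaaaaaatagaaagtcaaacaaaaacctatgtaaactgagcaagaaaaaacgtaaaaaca
osgn-1: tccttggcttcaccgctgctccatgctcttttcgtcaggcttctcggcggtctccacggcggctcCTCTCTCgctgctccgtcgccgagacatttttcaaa
pkg-2: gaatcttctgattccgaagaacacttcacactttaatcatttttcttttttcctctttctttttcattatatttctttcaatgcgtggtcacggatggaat
sos-1: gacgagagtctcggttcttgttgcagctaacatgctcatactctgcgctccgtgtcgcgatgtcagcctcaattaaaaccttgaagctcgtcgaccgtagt
lsm-8: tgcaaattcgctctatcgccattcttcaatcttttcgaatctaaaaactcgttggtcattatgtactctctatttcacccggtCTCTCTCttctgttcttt
mob-2: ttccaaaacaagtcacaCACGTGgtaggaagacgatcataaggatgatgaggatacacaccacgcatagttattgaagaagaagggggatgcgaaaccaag

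These windows ranged from 31.7% GC in F59B10.2 to 59.4% in osgn-1. The median over all members was 37.6%, beside 39.6% over all pooled peaks.

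The strongest member lay in dnj-16, which encodes a DnaJ-domain protein of the chaperone family. Its pooled signal was 54.85, with 26.5 in replicate 1 and 31.3 in replicate 2, and its summit lay in intron 1, 244 bp downstream of the gene start. The next, in C34B4.2, had a pooled signal of 54.82 from 35.4 in replicate 1 and 13.9 in replicate 2, so the replicates were far less equal there. The third, in F59B10.2, had 54.79 from 26.9 and 21.9. On the other side of the threshold, the nearest thresholded intronic peaks were in hpk-1, which encodes a homeodomain-interacting protein kinase (55.1), fem-1 of the sex determination pathway (55.2) and mstr-1 (55.2). The hpk-1 and mstr-1 intervals held no replicate 2 summit, while their replicate 1 signals were 37.3 and 36.5. The fem-1 peak had 24.8 in replicate 1 and 29.6 in replicate 2. The signals of the members just inside and of the peaks just outside the threshold thus formed a continuous series.

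Replicate signals of the 25 strongest members ranged from 15.4 to 37.0 in replicate 1 (median 27.4) and from 13.9 to 38.5 in replicate 2 (median 26.2). Replicate 1 was higher in 15 of them and replicate 2 in 10. In swt-5, of the SWEET sugar transporter family, the replicates gave 31.3 and 29.3, and in unc-82, a kinase that organises the sarcomere, 26.1 and 25.7. In nep-26, of the neprilysin metallopeptidase family, they gave 15.4 and 38.5, and in sos-1, a guanine nucleotide exchange factor of Ras, 37.0 and 15.6. The remaining host genes at the top of the list were glo-2 (gut granule biogenesis), C54E4.4, osgn-1, pkg-2, ubql-1 (ubiquilin), unk-1, egl-27, lsm-8 (an Sm-like protein of the U6 snRNP), glb-25 (a globin) and inx-18 (an innexin of gap junctions). They were followed by daf-16, eif-2Bdelta (a subunit of the eIF2B translation factor), flcn-1, Y59C2A.2, mnk-1, nmy-3, alg-2 (an Argonaute of the microRNA pathway) and F53C11.5. These 25 lay on all 6 chromosomes, with 7 in a first intron, and 13 had a thresholded summit within 5000 bp.

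Over all members, the pooled signal ran from 21.7 to 54.9 with a median of 31.5. The signal in replicate 1 ran from 10.7 to 124 (median 15.9) and in replicate 2 from 9.14 to 54.99 (median 15.2). The authors' −log10 q had a median of 0.43, and 223 members (15.1%) reached 1.3, a q of about 0.05, while 26 reached 2. Most members thus had a q above 0.05 in the pooled list. In the replicates' own lists of 19074 and 22137 peaks, the median rank of a member was 7699 and 8085. Only 73 members were among the 2719 strongest peaks of replicate 1, 75 among those of replicate 2, and 4 among both.

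The rule bounds how far apart the replicate summits of a member can lie, since both had to fall within its interval. They lay a median of 48 bp apart, 752 of 1473 (51.1%) lay within 50 bp of each other, and 26 lay more than 200 bp apart. The order of the signals was shared only loosely: Spearman's rank correlation between the replicates was 0.30 over the 1473 members and 0.61 over 544 thresholded intronic peaks found in both. These values are descriptions, since the rule restricted the range of signals and of distances, and all points come from the same 2 libraries. The log2 ratio of replicate 1 to replicate 2 had a median of 0.10 and an SD of 0.55 over members, and 109 members differed by more than 1 on the log2 scale.

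Presence in both replicates was more frequent at higher signal among weaker intronic peaks. It was 257 of 980 at signals of 21 to 25, 372 of 744 at 25 to 30, 478 of 611 at 30 to 40 and 366 of 393 from 40 up to the threshold (26.2%, 50%, 78.2% and 93.1%). The rule used both measures, so no test was made. The weakest members thus come from a range in which most intronic peaks were seen in 1 replicate or none, and the strongest from a range in which nearly all were seen in both.

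**Figure D1:**
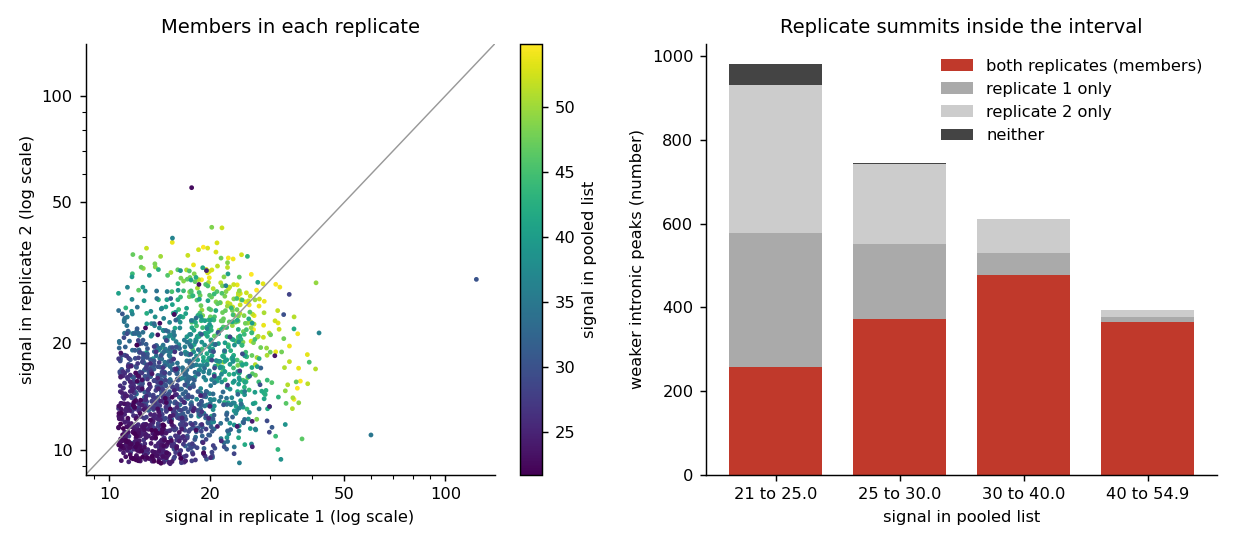
Left, signal of each of the 1473 members in replicate 1 and replicate 2 (log axes, line of equality, colour for the pooled signal); right, number of weaker intronic peaks by pooled signal, split by the replicates whose summit they held. Points spread on both sides of the line, and the share in both replicates goes from 26.2% in the lowest class to 93.1% in the highest.

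A few members took a replicate summit that another pooled peak also held. The intervals of 146 members (9.91%) overlapped another pooled interval, and 77 (5.23%) shared a replicate summit with another pooled peak. Of the 7 members with the most unequal replicates, ranked by the size of their log2 ratio and named after their values were seen, 4 lay 200 to 216 bp from a thresholded summit and 3 lay 1192 bp or more from any. In daf-14, which encodes a SMAD protein of the dauer pathway, replicate 1 gave 124 and replicate 2 gave 30.3 at a pooled signal of 30.2. In cab-1 the values were 60.04 and 11.01, in lfi-1 11.8 and 35.6, and in C30G4.4 17.6 and 54.99. The 3 farther from a thresholded summit were in unc-22, the giant muscle protein twitchin (37.4 and 10.7), R07A4.3 (32.4 and 9.40) and rnr-1, a subunit of ribonucleotide reductase (31.7 and 10.02), each higher in replicate 1. The replicate 1 value of the cab-1 member is also that of the thresholded peak beside it, whose interval held the same replicate 1 summit. Among all members, 35 (2.38%) had a thresholded summit within 500 bp and 562 (38.2%) within 5000 bp.

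The members were spread unevenly over the intronic sequence that the rule allowed (29.996 Mb in protein-coding genes, outside exons and promoter windows), at 49.1 per Mb over all. Chromosome II held 66.6 per Mb and X 65.5, while I held 38.1, V 40.3, III 41.2 and IV 46.9. X thus carried 327 members, 22.2% of them (interval 20.1 to 24.4), on 16.7% of the sequence. The first intron of a gene held 69.8 per Mb, intron 2 held 52.7, intron 3 held 43.6 and later introns 39.4. First introns accounted for 475 members, 32.2% (29.9 to 34.7) on 22.7% of the sequence. Distance from the gene start went the other way: density was 34.9 per Mb at 200 to 500 bp downstream and 59.8 per Mb beyond 5000 bp.

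Density was highest in long introns. Introns of more than 3000 and up to 10000 bp held 492 members, 33.4% of all on 17.2% of the sequence, at 95.1 per Mb. Longer introns held 98.4 per Mb, whereas introns of 300 to 1000 bp held 31.7 per Mb. Within each length class, first introns were denser than later ones: 37.7 against 32.02 per Mb up to 1000 bp, 62.1 against 35.03 at 1000 to 3000 bp, and 103 against 90.7 above 3000 bp. X was denser than the autosomes in introns up to 1000 bp (49.5 against 29.4) and at 1000 to 3000 bp (64.7 against 37.5), and close to them above 3000 bp (99.5 against 94.9). Densities are descriptions and carry no test.

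**Figure D2:**
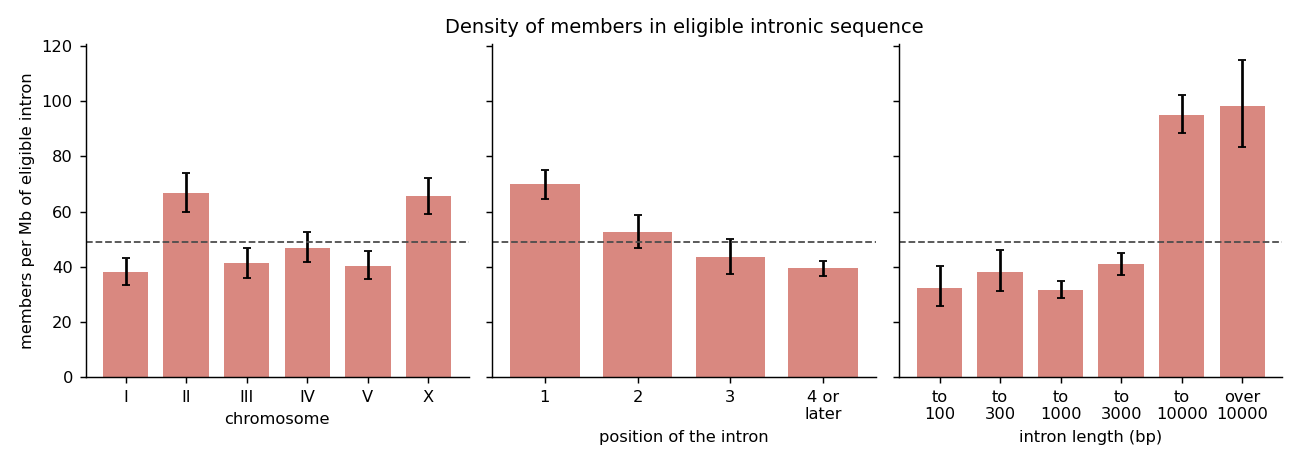
Members per Mb of eligible intronic sequence by chromosome, position of the intron in its transcript and intron length; error bars are 95% Clopper-Pearson intervals of the share of members, scaled to density, and the dashed line is the density over all eligible sequence, 49.1. Chromosomes II and X, first introns and introns above 3000 bp stand above the line. Intron 2, at 52.7, stands slightly above it, with an error bar that reaches below the line.

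Soft-masked sequence (repeats and low-complexity stretches in the genome file) was under-represented: the summit base was masked in 399 members (27.1%), against 51.9% of the eligible sequence. Fewer summits than eligible bases lay in the first or last 33.3% of a chromosome's length, at 59.2% against 71.7%. In worms these chromosome arms hold more repeats and fewer essential genes than the centres.

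Many members lay close to the start of a shorter transcript of the same gene. In 298 members (20.2%, 18.2 to 22.4) the summit was within the window from 1000 bp upstream to 200 bp downstream of an inner protein-coding transcript start, a window that took 10.8% of the eligible sequence. The start belonged to the host gene in 294 of them. The summit lay upstream of the start in 280, at a median of 382 bp over these 280. The window reaches 1000 bp upstream but only 200 bp downstream, and the rule bars exons, so the count of 280 largely follows from them. Among the strongest were dnj-16 (163 bp upstream), C34B4.2 (470), unk-1 (367) and egl-27 (422), which encodes a chromatin protein related to the MTA subunits of NuRD. In glb-25, nep-26, alg-2 and F53C11.5 the distances upstream were 168, 163, 538 and 541 bp. A member in mbk-2 lay 136 bp upstream and a member in fkh-7 lay 183 bp upstream of such starts. These summits lie in an intron of the longer transcript and upstream of the shorter one.

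Genes of small RNAs and long intergenic noncoding RNAs (lincRNAs) lay within 500 bp of 48 members (3.26%, 2.41 to 4.30), on 1.04% of the eligible sequence. Among them, 29 were near a tRNA gene (1.97% of members on 0.428% of the sequence). The summit was within 100 bp of it in 23 of the 29, at a median of 29 bp over the 29, and 13 were on X. The strongest, in swt-5, lay 17 bp from a tRNA gene (WBGene00014423) that opens at the capitals in its sequence above. A member in W03C9.6 lay 10 bp from the tRNA gene WBGene00014539 with a signal of 52.6 (19.4 and 32.3 in the replicates). A further 12 were near a snoRNA gene, 11 of them on the same strand as the host, and 8 within 100 bp. The remaining 7 were near 3 snRNA genes, 3 lincRNA genes and 1 miRNA gene. With so few of these 3 kinds, no comparison among them is made.

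The members fell in 1025 host genes, 5.85% of 17535 protein-coding genes with any eligible intron sequence. In 774 of them there was 1 member, in 154 there were 2 and in 51 there were 3. Introns of mbk-2, a DYRK-family kinase that acts at the oocyte-to-embryo transition, held the most, with 9. Their signals ran from 24.4 to 52.4, and no thresholded peak lay in its introns or promoter. The strongest of the 9 had 24.7 in replicate 1 and 35.6 in replicate 2, and the next, at a pooled signal of 51.1, had 41.1 and 16.9. kin-1, the catalytic subunit of protein kinase A, held 8 at signals of 22.7 to 52.0. A pair of these 8, with pooled summits at 14947357 and 14947560 on chromosome I, took the same summits in both replicates (19.5 and 32.1). vhp-1, a phosphatase of MAP kinases, also held 8, at 23.6 to 50.6.

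daf-16, the FOXO transcription factor of the insulin pathway, held 7 members, 6 of them in 1 intron of 12401 bp. The strongest had 25.4 and 26.2 in the replicates and lay 1308 bp downstream of the gene start. fkh-7, a forkhead factor, also held 7, of which 5 lay in its first intron of 16465 bp, with a strongest signal of 53.2 (26.4 and 20.3 in the replicates). It held 3 thresholded peaks besides, with signals of 150, 197 and 201. pde-4, a phosphodiesterase that degrades cAMP, held 7 with no signal above 38.0. pkg-2, a cGMP-dependent protein kinase, held 6, led by the member of 54.7. flcn-1, the worm folliculin, held 6 at 22.6 to 53.9, and its strongest gave 27.9 and 25.5. mpz-1, a protein with many PDZ domains, held 6 at 22.8 to 50.1. cab-1 held 6 at 32.8 to 49.9, with a thresholded peak of 139 in the same gene.

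Per kb of eligible intron, the 10 genes with most members ranged from 0.192 in mpz-1 to 0.619 in vhp-1. With 8 members each, kin-1 had 32.7 kb of eligible intron and vhp-1 had 12.9 kb. Host genes also carried thresholded peaks more often than all genes: 297 of 1025 (29.0%, 26.2 to 31.9) had 1 at the promoter or in an intron, against 9.73% of 17535 genes. For introns alone the shares were 19.0% and 2.28%, and for promoters 13.5% and 7.94%. Host genes had a median of 4.26 kb of eligible intron, against 0.736 kb over all such genes, and its part in these shares was not tested.

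**Figure D3:**
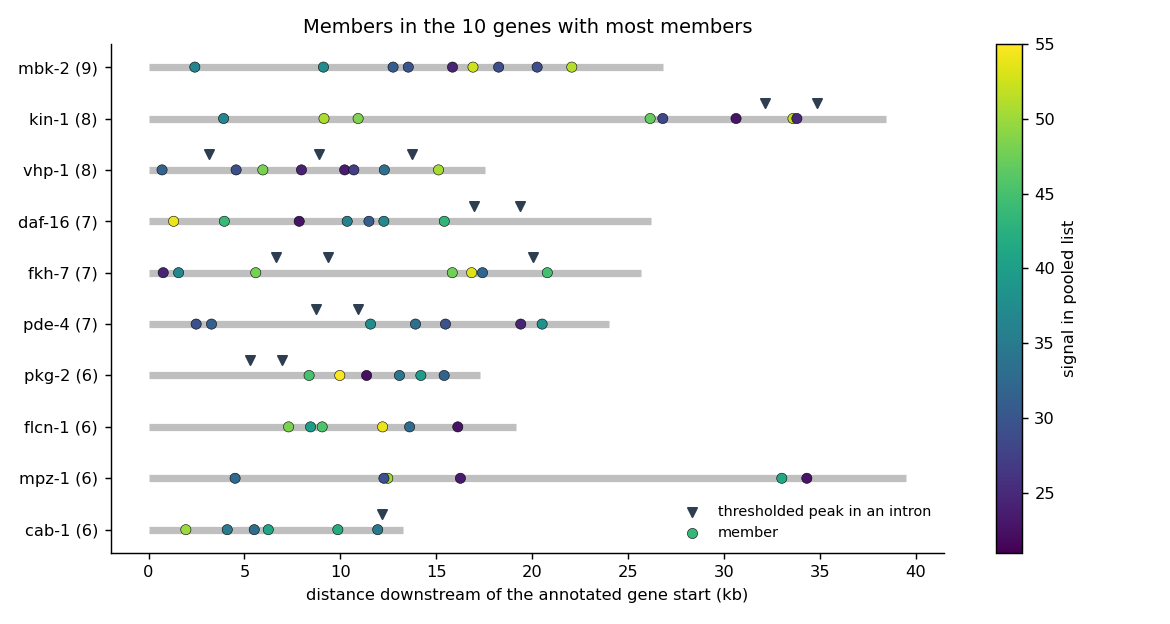
The 10 host genes with the most members (number in brackets), drawn from the annotated gene start (0) to the gene end in kb; circles are members, coloured by pooled signal, and triangles are thresholded intronic peaks. Members lie along much of the gene, and mbk-2, flcn-1 and mpz-1 hold members but no thresholded intronic peak.

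Gene groups differed in how often their introns held members. The lists overlap (daf-16, daf-12 and cam-1 are in more than 1), and they are described by counts and density beside the values for all genes, 5.85% of genes as hosts and 49.0 members per Mb. Of 36 lists, 18 were denser than all genes and 18 sparser, and 7 had no host. Density was itself higher in long introns (95.1 per Mb at 3000 to 10000 bp, 31.7 at 300 to 1000 bp). The lists were not matched for intron length, and its part in their densities was not tested.

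Transcription factors of the forkhead, GATA, T-box and SOX families held 25 members in 8 of 51 genes (15.7%, 7.02 to 28.6), at 163 per Mb. They were led by egl-27, daf-16, fkh-7 and egl-13, a SOX factor (51.5, with 22.8 and 28.8 in the replicates). Most of the 25 lay in few genes, with 7 in daf-16, 7 in fkh-7 and 4 in egl-27, so the density rests largely on these. bHLH and bZIP factors held 25 in 12 of 64 genes, at 145 per Mb. Among them were atf-7, a bZIP factor of the p38 immune pathway (45.02, from 24.0 and 26.8), jun-1, hlh-11 and hlh-30, the worm TFEB homologue that controls autophagy and lysosome genes (43.1, from 16.01 and 29.5). Nuclear hormone receptors themselves held 41 in 21 of 269 genes, at 93.2 per Mb. Their share of hosts was 7.81% (4.90 to 11.7), an interval that covered the 5.85% of all genes. nhr-1 (53.1, from 23.5 and 24.0), nhr-40, nhr-46 and nhr-19 led, and nhr-1 alone held 5 members and nhr-46 held 4. Homeobox factors were sparser than all genes, with 10 members in 7 of 100 genes at 39.4 per Mb, among them ceh-18 of the POU class, the Hox gene lin-39, unc-62, which encodes a Meis-type cofactor, and ceh-62. Zinc finger factors held 7 in 7 of 58 genes at 40.7 per Mb, led by lir-2.

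Developmental timing and signalling genes were also dense. The heterochronic list had 3 hosts of 11 genes, at 133 per Mb: lin-14 (48.4, from 21.7 and 29.0), daf-12, a nuclear receptor for dafachronic acids (47.6, from 18.6 and 27.3), and lin-42, the worm Period homologue (39.3, from 12.6 and 28.8). All 3 were higher in replicate 2. TGF-beta, Notch and insulin signalling held 26 members in 14 of 55 genes, at 114.9 per Mb, with daf-5, the SNO/SKI partner of the dauer TGF-beta pathway (52.0, from 24.5 and 25.7), ist-1, an insulin receptor substrate homologue, and lag-1, the CSL factor of Notch signalling. Wnt signalling held 10 in 5 of 30 genes at 94.7 per Mb, among them cam-1, a ROR-family receptor tyrosine kinase, and the Nemo-like kinase gene lit-1. Ras and MAP kinase signalling held 18 in 11 of 44 genes at 68.2 per Mb, with sos-1, mnk-1, tir-1, the SARM adaptor of p38 signalling, and soc-2, a leucine-rich scaffold of the Ras pathway.

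Lists of synaptic, axon guidance and muscle genes had many hosts, while ion channels and neuropeptides did not stand above all genes in density. Synaptic transmission had 23 hosts of 88 genes (26.1%) and 84.98 members per Mb, with ric-7, snt-2, a synaptotagmin, lin-10 and mpz-1 leading. The strongest in this group, in ric-7, had 53.4, with 31.8 and 22.8 in the replicates. Axon guidance and cell adhesion had 26 hosts of 100 genes at 62.8 per Mb, led by cam-1 (51.7), casy-1, a calsyntenin, and sax-7, the L1CAM homologue. Muscle sarcomere and attachment genes had 15 hosts of 65 at 88.5 per Mb, led by unc-82 (53.8), vab-10, a spectraplakin, tmd-2 and unc-94, both tropomodulins. Ion channels had 28 hosts of 298 and 35.6 per Mb, below the density of all genes, led by inx-18, twk-7, shk-1 and kvs-5. Neuropeptides and insulins had 3 hosts of 123 genes (2.44%) at 27.7 per Mb, which were nlp-26, flp-34 and nlp-11. The large share of hosts in some lists went with more eligible intron per gene, summed over the introns of a gene. Its mean was 7.01 kb in axon guidance and 5.08 kb in synaptic transmission, against 1.71 kb over all genes. The part of this in the shares was not tested.

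Housekeeping lists and expanded families were mixed. Ribosomal protein genes (39 with eligible sequence), respiratory chain and ATP synthase (32), proteasome subunits (23), and V-ATPase and lysosomal proteases (39) held none. These 4 lists hold little eligible sequence (0.00438, 0.0334, 0.00455 and 0.0378 Mb in that order), so that their zeros say little beside 49.0 members per Mb over all genes. Other lists of such genes were denser than all genes, on few members: translation factors with 3 at 127 per Mb, heat shock proteins with 1, in hsp-60, at 79.3 per Mb, and cuticle collagens with 3 at 61.4 per Mb. RNA-binding and splicing factors held 14 members at 59.9 per Mb, chromatin regulators 12 at 53.3, fatty acid metabolism 7 at 47.6 and basement membrane genes 4 at 40.3. Chemoreceptors held 21 in 1225 genes (1.71%, 23.9 per Mb), C-type lectins 3 (1.28% of genes, 16.5 per Mb), F-box A proteins 1 in 163 (9.29 per Mb) and detoxification enzymes 3 in 182 (19.6 per Mb). The chemoreceptors had signals of at most 45.7, in srd-32 (21.8 and 22.2 in the replicates). Tissue marker lists held 9 members in 3 of 13 body wall muscle genes (unc-22, unc-89 and lev-11), 5 in 5 of 15 neuron genes (among them unc-64, unc-31, unc-13 and rgef-1) and 1 in 1 of 10 pharynx genes (pha-4, 21.7). Intestine, hypodermis and germline markers held none, with at most 0.0151 Mb of eligible sequence in each. These lists mark genes by tissue and do not show in which tissue NHR-11 was bound.

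At the locus of the tagged gene, nhr-11 on chromosome IV, no pooled peak lay within 1000 bp. unc-119 on chromosome III had 1 pooled peak, a thresholded 1 with a signal of 126, and no member. Any copy of either gene on the transgene cannot be told apart from the chromosomal copy in peak lists.

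GC content was higher at the summits of the members than beside them. The median GC content within 50 bp of the summit was 37.6%, and 34.7% in a window of the same length 300 to 400 bp away on a side drawn once for each peak. It was higher at the summit in 879 of 1473 members (59.7%, 57.1 to 62.2), lower in 547 and equal in 47. Thresholded intronic peaks, 45.5% against 35.6%, were higher at the summit in 432 of 551 (78.4%). Weaker intronic peaks not in both replicates were nearly level, at 35.6% against 34.7% and 651 of 1255 higher (51.9%). The weaker replicated intergenic peaks gave 38.6% against 32.7%. Summits of members lay in no exon, but flank windows were not held to introns and could include exons. Introns of up to 100 bp held 77 members and introns above 100 and up to 300 bp held 97, and their flanks lay outside that intron. This applies to the motif and 6-mer counts below as well, and its part in them was not tested.

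Of 27 motifs counted on both strands in the summit window and in the flank window, 4 (14.8%) differed at an adjusted p below 0.05 in the exact McNemar test (2-sided, Benjamini-Hochberg over the 27). Repeats of GAGAGAG, which may overlap themselves, were in 87 summit windows and 35 flank windows (5.91% against 2.38%, adjusted exact p = 4.0e-05), beside 6.93% of the windows of all 13558 pooled peaks. The E-box CACGTG, the palindrome that many bHLH factors bind and which also matches CANNTG, was in 48 and 18 (3.26% against 1.22%, adjusted exact p = 0.00258), beside 3.33% of all pooled. Lower at summits were TATAAA, the TATA box letters (111 against 170, 7.54% against 11.5%, adjusted exact p = 0.00258, 7.86% of all pooled), and the run TTTTTTT (273 against 331, 18.5% against 22.5%, adjusted exact p = 0.0491, 15.7% of all pooled). The motifs more frequent at summits hold G and C letters, the less frequent ones hold A and T alone, and the GC content given above moves with them. Its part in the result was not tested. GAGAGAG passed in all 13 alternatives, whereas CACGTG missed the threshold with the flank on the other side (adjusted exact p = 0.0832), TATAAA with windows of 25 bp to each side (adjusted exact p = 0.340) and TTTTTTT in 4 of the 13.

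The hexamer AGGTCA of nuclear receptors was in 56 summit windows and 46 flank windows (3.80% against 3.12%, adjusted exact p = 0.609), beside 3.19% of all pooled windows. With the flank on the other side it passed, at 1.56 percentage points more at summits (adjusted exact p = 0.0489). The variant AGTTCA was in 84 and 90 (adjusted exact p = 0.822), beside 5.26% of all pooled. GATA letters AGATAA were in 8.08% of summit windows against 5.63% of flank windows (adjusted exact p = 0.0502) and TGATAA in 12.3% against 9.44% (adjusted exact p = 0.0643), neither past the threshold. No match in a window says only that these letters were not in it. Among all 2080 6-mers, counted with their reverse complements, 128 (6.15%) passed, 67 of them more frequent at summits and 61 less. The leading ones more frequent at summits were ACACAC (10.7% against 3.87%, adjusted exact p = 5.79e-10) and GAGAGA (13.99% against 6.25%, adjusted exact p = 1.02e-09), and the leading one less frequent was AAAATT (29.9% against 43.1%, adjusted exact p = 1.48e-10). Of the 36 6-mers without G or C, 22 were less frequent at summits and none more frequent, while of 640 with 3 letters G or C, 25 were more and 0 less frequent.

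**Figure D4:**
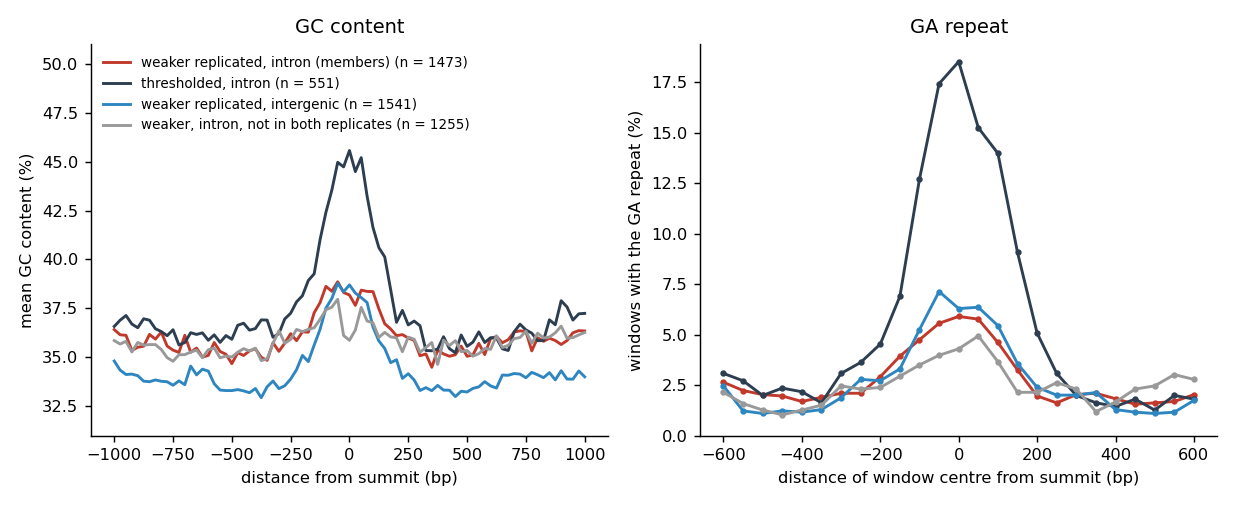
Left, mean GC content by distance from the summit (bp) for members, thresholded intronic peaks, weaker replicated intergenic peaks and weaker intronic peaks not in both replicates; right, share of windows with GAGAGAG by distance of the window centre. Members rise less at the summit than the thresholded intronic peaks, which reach 45.5% as the median of their summit windows against 37.6%.

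Set against the 551 thresholded intronic peaks, 14 of 35 features tested differed (40%). Features were the 27 motifs and 8 properties of position and sequence that the rule had not used, tested by Fisher's exact test (2-sided, Benjamini-Hochberg over 103 tests in all, of which 22 passed, 21.4%). Windows with GC above the median of all pooled peaks (39.6%) made up 37.9% of members and 73.0% of thresholded intronic peaks (adjusted exact p = 4.61e-44). GAGAGAG was in 5.91% and 18.5% (adjusted exact p = 1.09e-14), CACGTG in 3.26% and 7.44% (adjusted exact p = 0.00117) and TTTTTTT in 18.5% and 11.3% (adjusted exact p = 0.000715). A small RNA or lincRNA gene was near 3.26% and 8.89% (adjusted exact p = 8.38e-06), an inner transcript start near 20.2% and 29.9% (adjusted exact p = 7.57e-05), and 65.6% and 77.7% lay in introns above 1000 bp (adjusted exact p = 1.99e-06). At least 50% of the window was soft-masked in 14.3% and 4.90% (adjusted exact p = 1.08e-08), and 59.2% and 52.1% lay in the first or last 33.3% of a chromosome (adjusted exact p = 0.0268). First introns (32.2% and 36.7%, adjusted exact p = 0.1999) and X (22.2% and 21.1%, adjusted exact p = 0.864) did not pass. GAGAGAG and the E-box CACGTG, GC content and small RNA genes passed in all 11 alternatives. Soft-masking, inner starts, introns above 1000 bp, TTTTTTT and chromosome position missed the threshold when only the stronger members were used (adjusted exact p from 0.0633 to 0.215). These p-values describe the lists, since neighbouring peaks are not independent and both lists come from the same 2 libraries.

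Against the 1541 weaker replicated intergenic peaks, members differed in 2 of 33 features (6.06%). The inner transcript start is among them and is counted in the 22 passes given above. An intergenic position outside promoter windows cannot have it, so that it follows from the classes. The other is X, with 22.2% of members and 27.1% of intergenic peaks (adjusted exact p = 0.0122). This difference missed the threshold in 3 of 11 alternatives. GC content, GAGAGAG (5.91% and 6.29%, adjusted exact p = 0.891) and CACGTG (3.26% and 2.40%, adjusted exact p = 0.376) did not pass. GC above the median was at 37.9% and 40.6% (adjusted exact p = 0.307). Against the 1255 weaker intronic peaks not in both replicates, 6 of 35 passed (17.1%). Members were less often soft-masked (14.3% and 24.1%, adjusted exact p = 2.61e-09), more often above the median GC (37.9% and 30.5%, adjusted exact p = 0.000715) and more often in introns above 1000 bp (65.6% and 60.2%, adjusted exact p = 0.0255). TATAAA (7.54% and 11.2%, adjusted exact p = 0.00822), TTTTTTT (18.5% and 22.9%, adjusted exact p = 0.0272) and CCAAT (17.2% and 21.3%, adjusted exact p = 0.0350) were rarer in members. Of these 6, only soft-masking passed in all 11 alternatives. With members defined by 1 replicate, leaving out replicate 1 gave differences of 4.09 percentage points for GC (adjusted exact p = 0.222), 2.51 for introns above 1000 bp (adjusted exact p = 0.543) and -1.08 for CCAAT (adjusted exact p = 0.823). Leaving out replicate 2 gave -0.98 for TATAAA (adjusted exact p = 0.776) and 5.39 for introns above 1000 bp (adjusted exact p = 0.0543), and TTTTTTT missed the threshold without either replicate (adjusted exact p = 0.141 and 0.269). CCAAT missed it in 7 of the 11 alternatives and TTTTTTT in 4. X (22.2% and 22.3%) and first introns (32.2% and 32.4%) were at nearly the same share in both. Inner transcript starts (20.2% and 17.3%, adjusted exact p = 0.185) did not pass either, so their share is not particular to the members. These lists also differ in pooled signal, with a median of 31.5 in members and 24.4 in the peaks not in both replicates. In the weakest 369 members, 22.8% of windows were soft-masked, median GC was 35.6% and 54.2% lay in introns above 1000 bp. The part of signal in these differences was not tested.

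**Figure D5:**
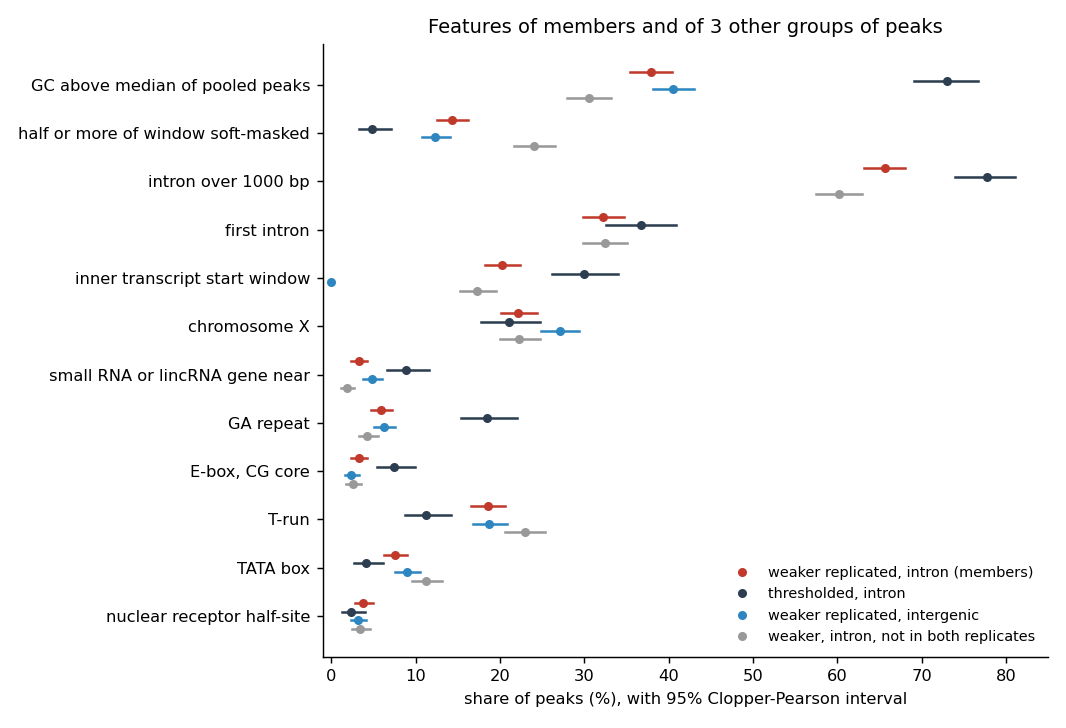
Share of peaks (%, with 95% Clopper-Pearson interval) that carry each feature in the members and the 3 comparison lists. Members lie between thresholded intronic peaks and weaker intronic peaks not in both replicates for GC above the median (37.9%, 73.0% and 30.5%) and soft-masking (14.3%, 4.90% and 24.1%).

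Several of these features changed along the strength of the members, from the weakest 369 to the strongest 368 when they were divided into 4 groups of signal. Median GC went from 35.6% through 36.6% and 38.6% to 40.6%. Members with an inner transcript start went from 12.2% to 27.2%, first introns from 25.5% to 37.0%, and those near a small RNA or lincRNA gene from 3 to 25 members. The share of soft-masked windows went from 22.8% to 7.34%. The share on X was 20.1%, 23.1%, 26.6% and 19.0%, with no steady direction, and GAGAGAG was at 2.44%, 5.71%, 7.88% and 7.61%. These values are descriptions, since the groups were cut by the signal that chose the members.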

How the data were processed

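ChIP-seq for eGFP-tagged NHR-11 was analysed from 1 group of 2 biological replicates, numbered as in the labels. Replicate and pooled lists were called, per the texts deposited with them, on alignments together with a further file that also entered a control-normalised signal, and the thresholded list was derived from them by irreproducible discovery rate. No aligner, caller or version is named in what was used here. The signal of each peak is the authors' deposited peak strength, on an unstated scale, and the −log10 q values are the authors' own, as deposited. Depth is unknown.

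Members were found in build ce11 by the rule given above, with genes of Ensembl release 115 for WBcel235 (19973 protein-coding genes, annotated gene starts). Summits came from the deposited offsets, and coordinates count from 1. Where genes nest, the host is the shortest gene around the summit. Introns were numbered in the host's longest transcript with an intron there, and 7 members lay in no single intron of a coding transcript. Motifs (27) and 6-mers were compared between the summit window of 101 bp and a flank window 300 to 400 bp away, on a side drawn with a fixed seed, by an exact McNemar test. Flank windows were not restricted to introns. Features were compared with 3 other peak lists with Fisher's exact test. Benjamini-Hochberg adjustment was made within each family, and 0.05 was the threshold. The tests were checked on simulated data. The work used Python 3.11.15, numpy 2.4.6, scipy 1.17.1, pandas 2.3.3 and matplotlib 3.10.9.

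Members, gene lists and tests were chosen with earlier results of these data known. Named genes are the hosts of the 25 strongest members, the 10 hosts with most members, up to 4 hosts per gene list, nhr-11, unc-119 and the 3 intronic peaks nearest to either side of the threshold. For the sequences, the strongest further member with each motif more frequent at summits was also taken, which adds mob-2. The genes daf-14, lfi-1, C30G4.4, R07A4.3, rnr-1 and W03C9.6 are not taken by the rule, and their values had been seen when they were chosen. Not every gene taken by the rule is named. Alternatives covered how a replicate match is made, promoter windows and starts, the window and flank, each replicate alone, the stronger members and build ce10.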

Additional observations from a re-analysis of the deposited data

How the results depend on the processing

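Over 14 settings, 69 of 86 recomputed summary values kept within their limits and 17 moved. The limits were a factor of 1.5 for a count and the 95% Clopper-Pearson interval of the reported value for a share. Results for single motifs and features were the same in 258 of 306 cases, and 7 of 26 calls passed in every alternative. The inner transcript start against intergenic peaks, which follows from the classes, is among the 7 and gave 10 of the 258. The motif count was the least stable: 4 as reported, it became 8 with interval overlap in place of a summit, 9 with the strongest 13000 peaks of each replicate, 9 in the stronger members (those at or above the median signal), 2 with a window of 25 bp to each side, 10 with 100 bp, 11 with the flank on the other side and 9 with a flank 500 to 600 bp away. GAGAGAG passed in all of these. CACGTG missed the threshold with the other flank side (adjusted p = 0.0832, exact McNemar test), and TATAAA did with 25 bp (0.340). AGGTCA passed with the other side (0.0489). With the strongest 13000 peaks there were 908 members in 658 genes, and the share in a host with a thresholded peak was 41.1%. The stronger members numbered 737 in 555 genes, with 42.5% in such a host, 36.9% in first introns, 25.2% at an inner start and 4.88% near a small RNA gene. With promoter windows at every transcript start, first introns made up 29.1%, and inner starts are absent by construction. Requiring 1 replicate in place of both gave 2036 to 2115 members in 1342 to 1386 genes, 5 to 6 motifs, 21 to 21 features, and shares of 22.2% to 22.4% on X, 31.9% to 32.7% in first introns, 19.3% to 19.6% at inner starts, 2.70% to 2.98% near small RNA genes and 35.4% to 35.5% in hosts with a thresholded peak. Without members that share a replicate summit, an alternative chosen after seeing the data, 1396 members gave 5 motifs and 22 features. In ce10, for which no annotation was used, only the count of weaker peaks in both replicates was compared. No paired analysis was possible because there is a single group. Unknown depth and the missing untagged control limit all values.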
